A study of Drosophila melanogaster with 3 samples.

Results

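The small-subunit ribosomal protein genes of Drosophila melanogaster were taken as all genes whose current symbol begins with RpS, together with sta, the fly gene for RpSA. RpS3A was not included, and genes for mitochondrial ribosomal proteins carry another prefix. The rule found 38 genes among 13962 protein-coding genes in the gene table. Of these 38, 24 were on the authors' list of FMRP targets and carried FMRP sites, and 14 were not on the list and carried none.

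The sites came from enhanced CLIP of FMRP, the fly fragile X protein, in adult flies. Here ultraviolet light crosslinks proteins to the RNA they touch, FMRP is recovered with its crosslinked RNA, and that RNA is compared by sequencing with input RNA of matched size. Per the labels, 2 libraries were FMRP immunoprecipitates on FLAG beads, titled FMRP UV and assigned to intestinal progenitor cells, and 1 was the size-matched input, assigned to all cells. All 3 libraries were made from ground whole adults of both sexes, and the labels give neither genotype, age in days, nor the driver of the tagged protein. The deposited files are a list of 60497 sites of 1 nt each, with a score of no stated unit, and a list of 1829 target names. They hold no value per library, so depth is unknown and no difference between libraries could be tested. All values below are therefore descriptions, and intervals cover counting error only.

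The small ribosomal subunit reads the messenger RNA and is built of rRNA and one copy of each small-subunit protein, which form its head, body and platform. Ribosomal protein mRNAs are among the most abundant in growing cells. In flies, loss of one copy of many of these genes gives the Minute phenotype of slow growth and thin bristles. FMRP is a translational regulator known to bind both mRNAs and ribosomes. Abundance of the mRNAs was not measured in these files, and its part in the counts below was not tested.

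Target status was counted first. The 24 targets of 38 made up 63.2% of the genes (exact Clopper-Pearson 95% interval 46.0 to 78.2), where 11.2% of all protein-coding genes were on the authors' list. Site status matched target status in every gene. At least 1 site lay in the span of 24 of the 38 genes, where 16.3% of all protein-coding genes had one. Over all protein-coding genes, 1551 of the 1560 targets held a site outside nested genes, and 725 of the 12402 genes off the target list (5.85%) held one in their span, so the match in these 38 genes is near the background. The 24 genes held 524 sites outside nested small RNA genes, 0.866% of all sites.

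Strand was the next check on these counts. The gene table gives no strand, so the strand holding a gene's sites stood in for its own. All sites of each of the 24 genes lay on 1 strand, plus in 12 genes and minus in 12. Among the 1560 protein-coding targets, 94 had sites on both strands in their span.

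The related lists gave a frame for this share. The genes for large-subunit proteins, which surround the peptidyl transferase centre, had 36 targets of 54 (66.7%, 95% interval 52.5 to 78.9). Led by RpL3 with 39 sites, RpL22 with 34, and RpL7A, RpL8 and RpLP0 with 33 each, they overlapped the small-subunit genes in share and in density. Initiation factors and Rack1, which bind the small subunit, had 7 targets of 25 (28.0%, 95% interval 12.1 to 49.4). In that list eIF4G1, the initiation scaffold, had 115 sites, the scaffold protein gene Rack1 54 and the helicase gene eIF4A 52. The genes for mitochondrial small-subunit proteins had 0 targets of 26 (95% interval 0 to 13.2) and no site. No test between the lists was made.

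**Figure D1:**
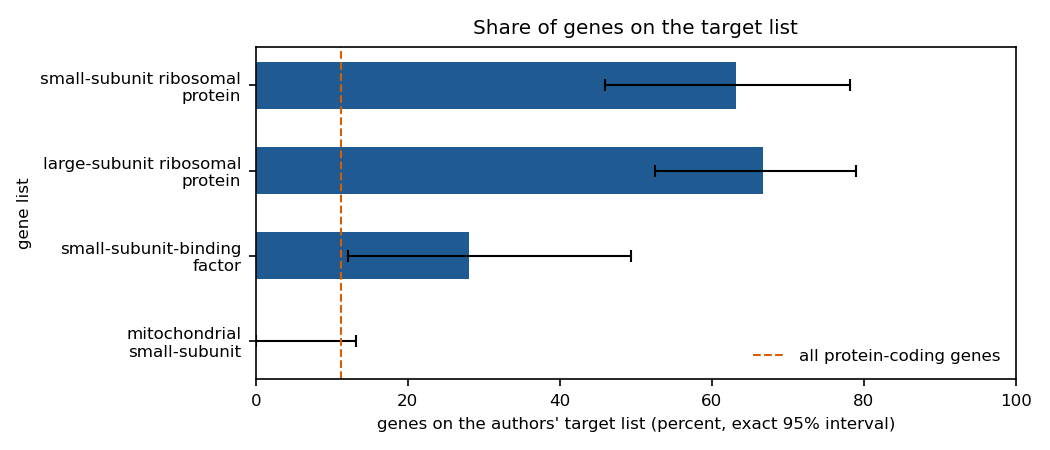
Share of genes on the authors' target list (percent, bars) with exact 95% intervals (lines) for 4 gene lists, and the 11.2% of all protein-coding genes as a dashed line. The small-subunit genes (63.2%) and large-subunit genes (66.7%) lie side by side, and the mitochondrial list is at 0.

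Site numbers varied widely among the genes that had any. The median was 23.5 sites per gene with a site, with quartiles of 11 and 32; the lowest was 1. There were 14 genes with at least 20 sites, 6 with 10 to 19 and 4 with fewer than 10. The 5 genes with most sites held 37.4% of the 524.

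Proteins of the body and platform were counted apart from those of the head, using their known place in the ribosome and leaving out RpS28-like, which was not placed. Body and platform genes had 12 targets of 19 and head genes 12 of 18. The placement was from general knowledge and was made after the data were seen. Among genes with a site, the median was 26.5 sites in the body and platform and 11 in the head. These medians leave out sites inside nested small RNA genes, 97 in head genes and 58 in body and platform genes. The ranges of site number overlapped, and no test was made. RpS18, RpS20 and RpS16, each with fewer than 10 sites outside nested small RNA genes, encode head proteins. With nested sites counted, RpS20 had 26 sites in its span and RpS16 had 12.

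**Figure D2:**
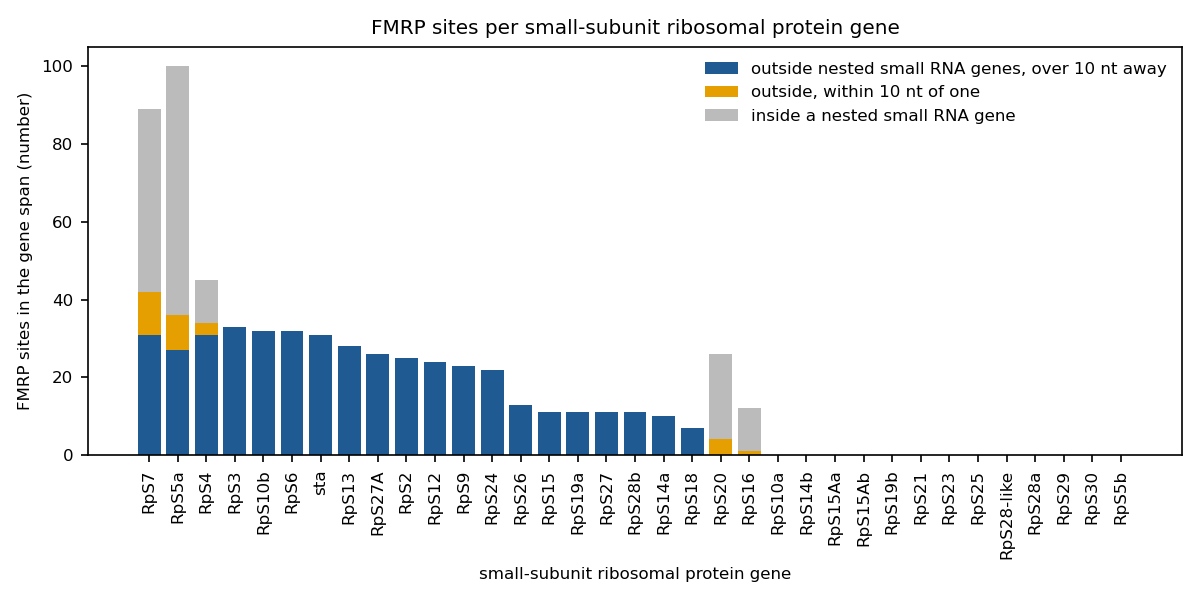
Number of FMRP sites in the span of 35 of the 38 genes, split into sites over 10 nt from any nested small RNA gene, sites within 10 nt of one, and sites inside one. RpS7 reaches 42 outside nested genes, RpS5a, RpS7, RpS20 and RpS16 have more inside them than outside, and 13 of the plotted genes are at 0.

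RpS7, a protein of the body, had 42 sites between 30206621 and 30208639 on 3R, with a median of 3.48 and a highest score of 16.5. A further 47 sites in RpS7 lay inside nested small RNA genes. The gene of RpS4, an rRNA-binding body protein, had 34 sites between 13042130 and 13043370 on 3L, with a median of 5.18 and a maximum of 15.5. RpS7 and RpS4 ranked 371 and 445 among the 1560 protein-coding targets by site number, so their counts were not extreme in the list as a whole.

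RpS6, the substrate of S6 kinase downstream of TOR, had 32 sites between 7899960 and 7900882 on X, with a median score of 3.31 and a highest of 14.1. All 32 also lay in the span of the pseudogene CR33222, itself on the target list, so the counts of these genes cannot be told apart. sta, named after the stubarista mutant, had 31 sites between 1481886 and 1482804 on X. Its median score was 8.38 and its highest 16.2. RpS13, known as a Minute gene, had 28 sites between 8363766 and 8364299 on 2L, with a median of 3.36 and a highest score of 15.7. Its lowest score, 0.00106, was also the lowest of any site in the 24 genes.

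Other body and platform genes had between 10 and 25. RpS2, known as string of pearls for its role in oogenesis, had 25 sites and RpS24 had 22. RpS9, whose yeast counterpart affects decoding accuracy, had 23, all within the span of the antisense gene asRNA:CR45874. RpS26, a protein of the mRNA exit site, had 13, the zinc finger protein gene RpS27 had 11, and RpS14a, a platform protein gene, had 10.

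Head protein genes were led by RpS5a, which lies near the mRNA exit channel. It had 36 sites between 17144241 and 17147073 on X, with a median score of 5.85 and a highest of 18.0, besides 64 sites inside nested small RNA genes. RpS3, at the mRNA entry channel and known as a Minute gene, had 33 sites between 23359155 and 23359804 on 3R. Its median score was 3.67 and its highest 12.3. RpS10b, whose human counterpart is ubiquitinated when ribosomes collide, had 32 sites between 19598051 and 19598855 on X. Its median of 9.33 and highest score of 30.6 were the largest of the 10 genes with most sites. RpS27A, made as a fusion with ubiquitin, had 26 sites between 10409833 and 10410349 on 2L, with a median of 2.52 and a highest score of 15.0.

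Other head genes had fewer. RpS12, which in flies takes part in cell competition, had 24 sites. RpS15, near the decoding centre, had 11, as did RpS19a and RpS28b. RpS18 had 7. RpS20 had 4 sites and RpS16 had 1 outside nested small RNA genes.

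Sites were also counted per length. In genes with a site, the median was 12.8 sites per 1000 nt of span, with a range of 0.444 to 24.6. Over the protein-coding targets with a site it was 2.49. Of the 24 genes, 23 were above that value, and the exception was RpS16. RpS24 had 24.6, RpS3 23.6 and RpS13 23.6, ranking 32, 36 and 37 among the 1560 protein-coding targets. Large-subunit genes had a median of 12.5. Spans include introns, and the median span of protein-coding targets was 7082 nt against 1485.5 nt for the 24 genes, so density and gene length move together here and their parts were not separated.

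The 14 genes without sites fell into single genes and paralogues. Outside paralogue families they included RpS21, RpS23, RpS25, RpS29 and RpS30. RpS23 is a decoding centre protein known to affect accuracy, RpS25 is needed for some internal ribosome entry in yeast and human cells, and RpS30 is made as a fusion with a ubiquitin-like protein. Outside the families, 19 of 25 genes were targets (76.0%). Inside them, 5 of 13 were.

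Paralogue families were compared gene by gene. In 5 of the 6 families exactly 1 gene had sites. RpS5a had 36 sites and RpS5b, a copy known from the ovary, had 0. RpS10b had 32 and RpS10a 0. RpS19a had 11, with a median score of 6.67 and a highest of 15.2, and RpS19b, also known from the germline, had 0. In the RpS28 family, RpS28b had 11 sites with a median score of 3.70 and a highest of 11.0, and RpS28a and RpS28-like had 0. The remaining family was RpS15A, where neither RpS15Aa nor RpS15Ab had a site. Of the genes without sites in these families, RpS5b, RpS10a, RpS19b and RpS28a lie on 3R, RpS15Ab on 2R and RpS28-like on 2L. RpS14b and RpS15Aa, also without sites, lie on X, as do all the copies with sites.

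RpS14a and RpS14b need separate mention, because these neighbours on X encode the same protein. RpS14a had 10 sites between 7934469 and 7934502, with a median score of 2.996 and a highest of 4.14. RpS14b had 0 sites. Reads from near-identical copies may be dropped or given to one copy during mapping, and how they were treated is not given in the sources used here, so the counts of paralogues are uncertain.

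The distance to the nearest site was read for the genes without one. It was not taken for other protein-coding genes without sites, so whether these distances are usual is unknown. In 13 of the 14 the nearest site on either strand was more than 2000 nt from the span, from 2264 nt for RpS25 to 32683 nt for RpS23. The exception was RpS14b, 396 nt from the sites of RpS14a. Genes without sites were also shorter on the whole, with a median span of 936 nt against 1485.5 nt in the targets, and the part of length in target status was not tested. Spans ran from 870 to 4677 nt in targets and from 304 to 2069 nt in the others. Of the 14 others, 5 were shorter than the shortest target and 9 were at least as long.

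Position along the gene was read from the 5′ end of the span, taking the strand of the sites as the strand of the gene. In 22 of the 24 genes the first site outside nested genes lay at least 300 nt from this end, between 343 nt in RpS3 and 1481 nt in RpS27A. The exceptions were RpS10b, whose first site was 20 nt in, and RpS28b, whose sites lay from 115 to 177 nt. Among the 32 large-subunit genes with a site, 26 had their first at least 300 nt in, as did 1263 of the 1551 protein-coding targets with a site. By sites, 4.77% of the 524 lay within 300 nt of the 5′ end, against 3.45% over all protein-coding targets, whose spans are longer. The first 100 nt held 14 of the 524 sites, all in RpS10b, which is 2.67% against 1.35% of the sites of all protein-coding targets. The last 100 nt held 9, with 7 in RpS24 and 2 in sta, which is 1.72% against 0.560%. In large-subunit genes the first 100 nt held 2.55% of the sites and the last 100 nt 1.02%. A window of 100 nt is a smaller part of the longer spans of all protein-coding targets, so these shares are not like for like. The span starts at the outermost annotated start of a gene, exons were not used here, and whether the stretches without sites are exons or introns was not examined.

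**Figure D3:**
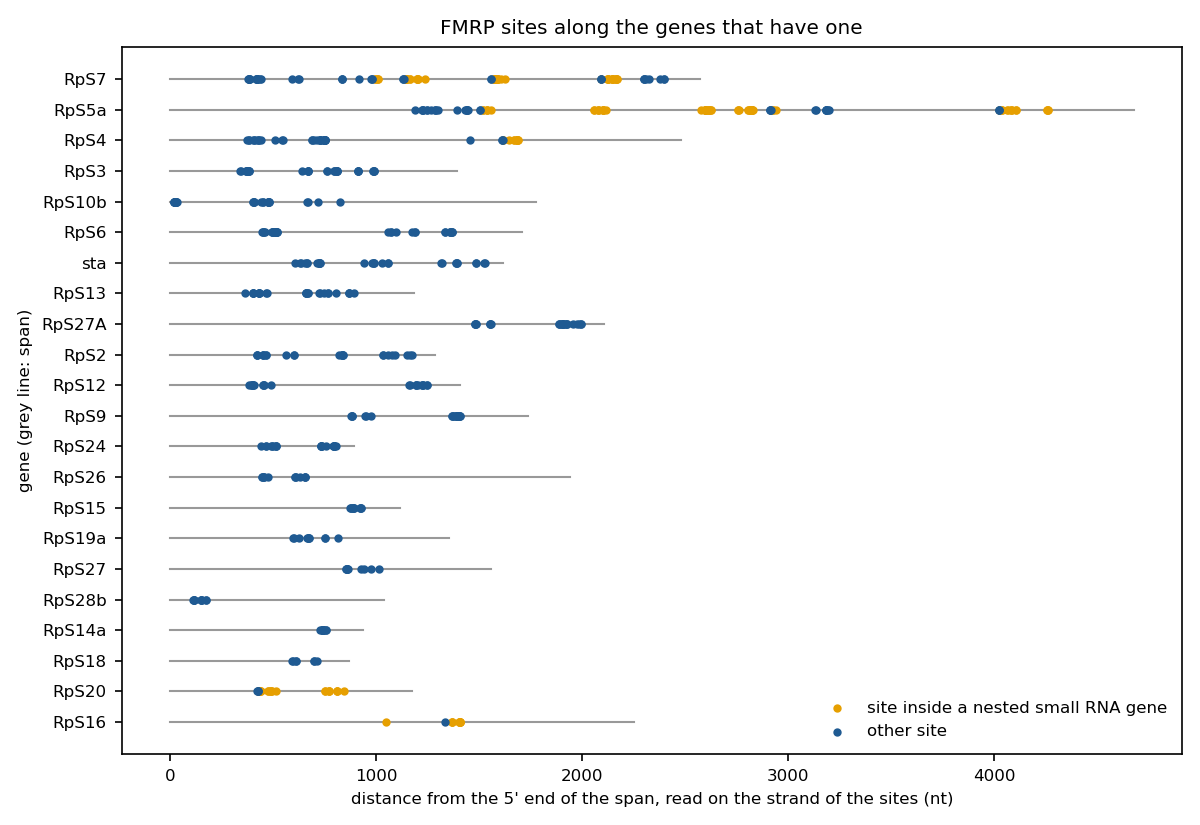
FMRP sites (points) along the span (grey line) of 22 of the 24 genes that have one, by distance in nt from the 5′ end on the strand of the sites, with sites inside nested small RNA genes in a second colour. Sites of RpS10b begin 20 nt from the end and those of RpS28b 115 nt from it, and the other 20 plotted genes have no site in the first 300 nt.

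Within the gene the sites were spread out, with the lowest share nearest the 5′ end. Each span was cut into 5 equal parts, numbered from the 5′ end. With each of the 24 genes weighing the same, part 2 held on average 27.5% of a gene's sites, part 4 held 26.1%, part 3 held 19.8%, part 5 held 17.7% and part 1 held 8.80%. Part 2 held the most sites in 10 genes and part 5 in 3, with ties given to the part nearer the 5′ end. Equal weighting counts RpS20 with 4 sites and RpS16 with 1 as much as any other gene. Pooled over sites, part 2 held 32.8%, part 4 23.5%, part 5 18.3%, part 3 15.6% and part 1 9.73%. Over all protein-coding targets part 5 held 40.6% on average and part 2 held 12.3%. The 24 genes are included in that average, and no test was made.

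**Figure D4:**
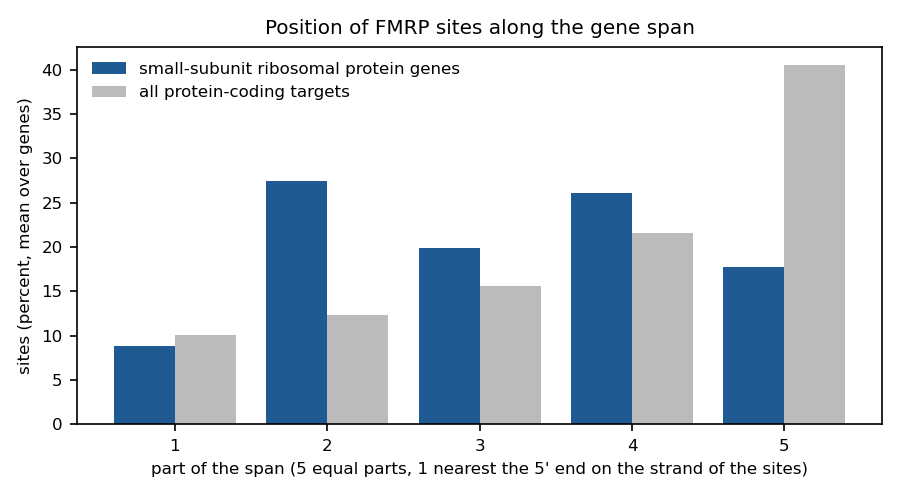
Mean share of a gene's sites (percent) in 5 equal parts of its span, counted from the 5′ end on the strand of the sites, in the 24 small-subunit genes and in all protein-coding targets. The small-subunit genes hold 17.7% in the part farthest from the 5′ end, against 40.6% over all protein-coding targets. Large-subunit genes, not plotted, hold 17.0% of their pooled sites there.

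Individual genes differed in where their sites lay. In RpS26 all 13 sites fell in part 2. RpS12 had 12 in part 2 and 12 in part 5, with none between. RpS27A had 9 in part 4 and 17 in part 5, and 0 of its 26 sites lay in the span of Ip259, a gene that overlaps it.

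Sites came in runs, joined where neighbours were at most 10 nt apart. The 524 sites formed 170 runs, of which 52 were single sites, and the median run had 2 sites. A site followed directly on another in 52.3% of cases, where the share was 48.6% over the protein-coding targets. RpS10b had 14 sites in 15 nt from 19598051 to 19598065 on X, 20 to 34 nt from the 5′ end, with a median score of 15.0. The large-subunit gene RpL27 likewise had all 9 of its sites in 1 run, 7 to 22 nt from its 5′ end. Its highest score was 30.7. RpS6 had a run of 12 sites in 25 nt and RpS9 one of 12 in 22 nt. There were 5 runs of 10 sites or more, while 20 of the 24 genes had a run of at least 5. Runs of these lengths were not counted in other genes, but long runs were found there too. The longest had 17 sites in large-subunit genes and 30 over all protein-coding targets. The median run also had 2 sites in large-subunit genes and over all protein-coding targets, where 9354 of 22654 runs were single sites.

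Scores were the authors' own and were used only to describe sites within the list. The median over the 524 sites was 4.25 (95% interval of the median 3.83 to 4.62, treating sites as independent), with quartiles of 1.91 and 8.96. The median of all deposited sites was 2.78, and 64.5% of the 524 sites lay above it, where 50% of all sites do. Of the large-subunit sites, 64.3% lay above that median. In 20 of the 24 genes the gene's own median was above it, a count not made for other genes. The exceptions were RpS27A at 2.52, RpS9 at 2.58, RpS24 at 2.30 and the lone site of RpS16 at 1.58. Large-subunit genes had a median of 4.46 and the initiation factors and Rack1 3.08. By gene, large-subunit medians also lay on both sides of 2.78, such as 9.90 in RpL7A and 0.771 in RpL35.

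**Figure D5:**
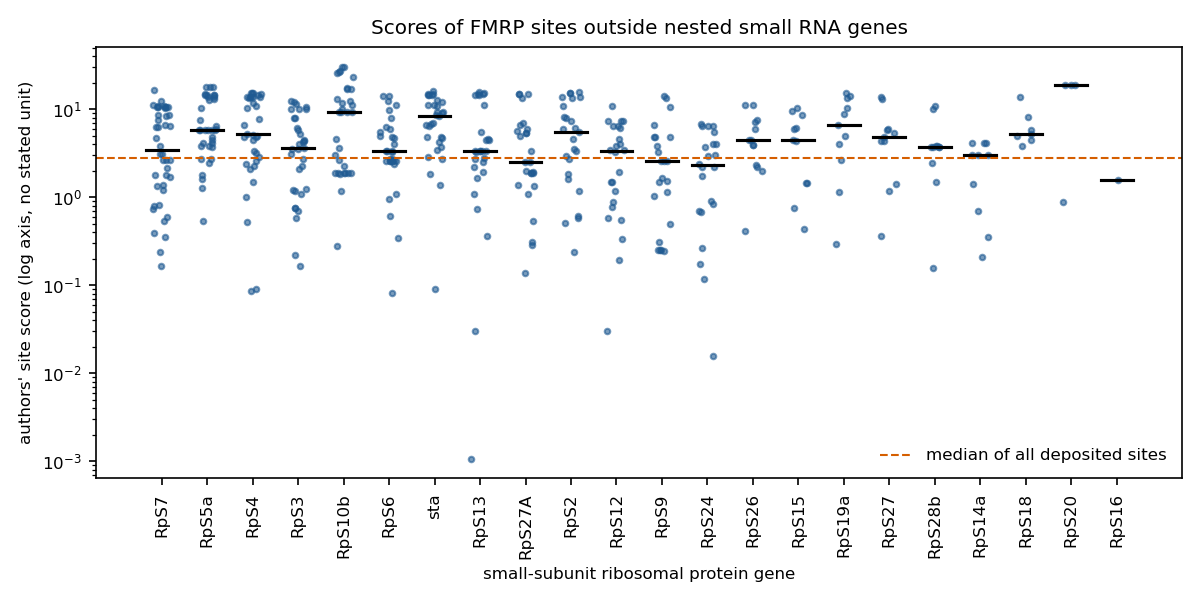
Authors' score of each site outside nested small RNA genes (points, log axis, no stated unit) in 22 of the 24 genes, with each gene's median as a bar and the median of all deposited sites, 2.78, as a dashed line. RpS10b reaches the highest score, 30.6, and 18 of the 22 plotted medians are above the line.

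The highest score was above 10 in 20 of the 24 genes. This count was not made for the other targets, and a gene's highest score depends on its number of sites. The highest score of any site was 30.6 in the 24 genes and 30.7 in the large-subunit genes. Over all protein-coding targets it was 708. The highest score was 4.14 in RpS14a, 6.74 in RpS24 and 1.58 in RpS16. RpS20 had only 4 sites, 3 of them near 19.1.

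Nested small RNA genes were counted separately. Small nucleolar RNAs guide rRNA modification and in flies are often cut from introns of ribosomal protein genes, so RNA contacts there need not be contacts of the mRNA. Of the 38 genes, 13 held 43 nested small RNA genes, and 10 of these 13 hosts were targets. In the 25 genes without nested small RNA genes, 14 were targets. The hosts RpS29 and RpS23, the latter with mir-308, had no site inside or outside the nested genes.

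Sites inside nested genes made up 155 of the 679 sites in the spans, or 22.8%, and all lay on the strand of the host's other sites. Their median score was 8.98. They came from 16 of the 43 genes. Of the 30 nested genes with Psi in their name, the mark of pseudouridylation guides, 15 had a site, as did 1 of the 8 methylation guides, named with Me, and 0 of the other 5. RpS5a held 64 such sites in 7 of its 14 nested genes, among them snoRNA:Psi28S-1135f with 18 and a highest score of 37.1. RpS7 held 47 in 4 of 7, RpS20 22 in 2 of 2, RpS4 11 in 1 of 3 and RpS16 11 in 2 of 5. Several of these guides are near copies of each other, so the split among them is uncertain.

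The borders of the nested genes carried sites as well. Among the 524 sites outside nested genes, 30 lay within 10 nt of one, in 6 host genes, and all 30 were on its upstream side on the strand of the sites. The 4 sites of RpS20, at 20822606 to 20822609 on 3R, ended 1 nt before snoRNA:Psi18S-1295. The single site of RpS16, at 22607082 on 2R, lay 3 nt before snoRNA:Psi28S-1175a. The highest-scoring site of RpS5a, at 17144241 on X, directly adjoined snoRNA:Psi28S-1192c.

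With these border sites left out, 22 of the 24 genes and 494 sites remained, and RpS20 and RpS16 had no site. RpS5a then had 27 sites, RpS7 31 and RpS4 31. In the large-subunit list, 4 targets, RpL23A, RpL28, RpL30 and RpL36A, had all of their sites inside nested small RNA genes.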

How the data were processed

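Enhanced CLIP of FMRP was deposited as 2 lists for the whole series. The score of each site is the authors' deposited value, of unstated scale and normalization, and the target names carry no measurement. Tools listed without roles in the submitters' processing notes are STAR 2.7.3a, SAMtools 1.10, UMI-tools, DESeq2 and cutadapt 2.9. Site calling, the use of the input and the target rule are likewise unstated. No count model was run.

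Target names were matched to RefSeq genes of Release 6 by current symbol (1753), by the synonym of a single gene (65) or by locus tag (11). The list names no build. Of 1827 target genes on the main chromosomes, 1823 held a site, against 458 and 457 after moving the spans by 100000 nt to either side. Coordinates are the list's own, counted from 1.

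A site counted for a gene if it lay in its span on the strand holding most of its sites and outside nested snoRNA, miRNA, snRNA and tRNA genes. The assignment was tested on simulated data. Python 3.11.15, pandas 2.3.3 and scipy 1.17.1 were used. Members, lists and thresholds were chosen with earlier results of these data known. The rule named all members, with full values for the 10 with most sites and for paralogues, and for the 3 leading genes (with ties) of each comparison list. Bases around sites and exonic position were not analysed. Results of 3 members are not reported here by gene, and totals include them.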

Additional observations from a re-analysis of the deposited data

How the results depend on the processing

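No paired analysis was possible because the files hold no values per library, and for the same reason no library could be left out. Of 25 alternatives, 21 kept the value within the limits used, a factor of 1.5 for counts and the 95% interval for medians, and 4 did not. With only sites scoring at or above the median of all sites, 338 sites remained of 524, in 23 genes. With sites in nested small RNA genes included, the median score was 4.77 in place of 4.25. Without hosts of nested small RNA genes, an alternative chosen after seeing the data, the median position of sites was 56.3% of the span in place of 52.1%. Joining sites up to 50 nt apart gave 78 runs in place of 170, by construction. With at least 5 sites in place of the authors' list, 22 genes counted as targets. Leaving out sites shared with another gene's span removed RpS6 and RpS9 and left 469 sites in 22 genes. Exonic position and bases around sites, planned as alternatives or results, were not run. The same-strand overlap of other genes was replaced by overlap on any strand. Depth is unknown, so a count of 0 sites is no statement that FMRP does not touch the RNA.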
